A study of Rattus norvegicus with 12 samples.

Results

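Scavenger receptors are surface proteins of the cells that line the hepatic sinusoids. The genes described here are Marco, Msr1, Cd163, Stab1, Stab2, Mrc1, Cd36 and Scarb1, followed through Kupffer, endothelial, Lyz2 myeloid and hepatocyte cells of healthy male rat liver. The list holds 8 genes, of which 7 have a row in the gene list. Cd36 has none and was not analysed here. The genes were chosen by their levels in the cell classes, by how Marco is spread over Kupffer cells, and by their strain folds and zones in these data, so those values are a description. Counts of receptors past a threshold are printed beside the share or the count of all genes past it, and nothing is read from them.

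The series holds 12 libraries. Total liver homogenate (TLH), the cell suspension left by a 2-step collagenase digestion of the whole liver, came from 2 Dark Agouti (DA) and 2 Lewis (LEW) rats, and nuclei extracted from liver (snRNA-seq) from 2 rats of each strain. Immune-enriched suspensions, which had an additional wash, came from 1 DA and 1 LEW rat. The 2 Visium sections, in which spots of tissue are sequenced in place, were of Wistar liver. The labels call every rat healthy and name no treatment or allele, while the deposited names of all but the Visium counts carry the word sham. The study describes the nuclei as coming from further rats of each strain, while the sham numbers in the deposited names recur between TLH and nuclei, and the labels do not settle which holds. The series' design text gives the TLH rats an age of 8 to 10 weeks, the study's methods give an older age matched between strains, and the names of the deposited TLH counts carry 10 weeks for DA and 13 weeks for LEW, so that strain and age cannot be told apart if those names hold. The immune-enriched names carry 9 weeks for both strains, and no age is given in the labels for the nuclei or sections.

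After filtering, 23036 TLH cells, 12525 nuclei and 3840 immune-enriched cells were kept. The kept cells of a library held between 9593027 and 19850024 unique molecular identifiers (UMIs, counted RNA molecules) for TLH, 4995131 and 10860039 for nuclei, and 9717183 and 40028899 for immune-enriched cells. Clusters were named from markers that exclude the receptors. The 1704 Kupffer-like TLH cells were led by C1qa, C1qc, Cd5l, Vsig4 and Clec4f, the 2684 endothelial-like cells by Lyve1, Fcgr2b, Gpr182 and Ramp2, and the 315 Lyz2 myeloid-like cells by Lyz2, Slpi and MHC class II genes. The nuclei gave 298, 531 and 54 of these classes and the immune-enriched cells 418, 551 and 173. Hepatocyte-like cells numbered 16226, 10526 and 1712. Levels are UMIs of a gene per 1000000 UMIs of a class in a library (CPM), and hepatocyte-like cells served as the background that free RNA leaves in cells that do not make a macrophage or endothelial gene. Hepatocyte markers made up 8.10% to 11.5% of UMIs in Kupffer-like, 12.5% to 14.7% in endothelial-like and 15.7% to 17.3% in hepatocyte-like TLH cells, so that the background in this preparation was high. In immune-enriched Kupffer-like cells it was 0.313% and 2.22%.

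Sinusoids carry portal and arterial blood past liver sinusoidal endothelial cells, which have open pores and a high rate of endocytosis, and past Kupffer cells, the macrophages that sit on that endothelium. Between them these cells take up bacteria, aged blood cells, modified lipoproteins, denatured collagen, hyaluronan and free haemoglobin. The receptors fall into several families. Marco and Msr1 are class A scavenger receptors with a collagen-like stalk that bind bacteria and modified lipoproteins. Cd163 takes up complexes of haemoglobin and haptoglobin. Stab1 and Stab2, the stabilins, are endocytic receptors, of which Stab2 clears hyaluronan. Mrc1 is the mannose receptor, which takes up mannosylated glycoproteins and collagen chains. Scarb1 is the receptor for high-density lipoprotein and is known to act in hepatocytes as well as in endothelium.

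The promoters of the receptors that differed most in where they were counted are shown first: Marco and Cd163, counted in Kupffer-like cells, Mrc1, counted in Kupffer-like and endothelial-like cells, and Stab2, counted in endothelial-like cells. The sequences are from RefSeq, assembly GRCr8, and run from 250 bases before to 50 bases after the gene's start on the gene's own strand. The Marco window is chr13:34201206-34201505, minus strand. That of Cd163 is chr4:158770524-158770823, plus strand. That of Mrc1 is chr17:82157475-82157774, plus strand, and that of Stab2 is chr7:23320513-23320812, minus strand. Capitals mark GAGGAAG or GGAAGT, letters of the kind bound by ETS factors, the family of the macrophage regulator PU.1, or their reverse complements CTTCCTC and ACTTCC. The motifs share the letters GGAAG, and where they overlap a stretch counts for both.
Marco: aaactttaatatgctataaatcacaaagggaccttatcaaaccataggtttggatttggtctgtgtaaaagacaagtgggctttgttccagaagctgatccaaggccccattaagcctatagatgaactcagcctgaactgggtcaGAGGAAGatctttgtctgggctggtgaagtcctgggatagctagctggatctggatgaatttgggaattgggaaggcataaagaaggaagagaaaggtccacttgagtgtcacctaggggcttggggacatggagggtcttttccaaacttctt
Cd163: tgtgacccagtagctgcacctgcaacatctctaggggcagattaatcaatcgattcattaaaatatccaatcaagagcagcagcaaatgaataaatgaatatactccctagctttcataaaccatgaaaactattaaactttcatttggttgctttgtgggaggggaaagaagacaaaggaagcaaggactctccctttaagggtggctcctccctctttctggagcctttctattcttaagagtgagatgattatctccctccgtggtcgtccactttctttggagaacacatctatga
Mrc1: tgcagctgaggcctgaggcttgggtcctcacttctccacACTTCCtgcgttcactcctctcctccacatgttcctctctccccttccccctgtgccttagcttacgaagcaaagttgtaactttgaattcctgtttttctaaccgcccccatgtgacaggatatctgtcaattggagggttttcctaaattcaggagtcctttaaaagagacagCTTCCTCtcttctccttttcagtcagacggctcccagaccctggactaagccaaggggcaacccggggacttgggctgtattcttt
Stab2: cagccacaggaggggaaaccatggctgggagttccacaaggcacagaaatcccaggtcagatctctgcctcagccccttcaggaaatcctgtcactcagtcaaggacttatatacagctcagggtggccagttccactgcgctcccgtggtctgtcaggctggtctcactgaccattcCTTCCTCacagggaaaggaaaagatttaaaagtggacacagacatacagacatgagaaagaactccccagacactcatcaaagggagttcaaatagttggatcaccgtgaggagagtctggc

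The Marco window held GAGGAAG at -104 on the gene's strand. The Mrc1 window held ACTTCC at -211 and CTTCCTC at -36, and the Stab2 window held CTTCCTC at -72, all on the opposite strand. The Cd163 window held neither motif. Counted on both strands, GAGGAAG was found in 12.4% and GGAAGT in 22.6% of the 33469 rat promoter windows of that length, so matches of this kind are common and mark no known site. GC content was 45.0% for Marco, 41.7% for Cd163, 51.0% for Mrc1 and 51.7% for Stab2, against a median of 51.7% over all windows. Stab1, whose window is not shown, held ACTTCC at 35, after the start.

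Marco was concentrated in Kupffer-like cells of the TLH. Its level there was 1083 and 1374 CPM in the DA rats and 2884 and 2989.7 CPM in the LEW rats. In endothelial-like cells it was 44.2, 39.5, 48.3 and 74.4 CPM in the same order, in Lyz2 myeloid-like cells 22.7, 36.9, 59.6 and 42.4 CPM, and in hepatocyte-like cells 34.1, 29.0, 24.8 and 39.7 CPM. Every Kupffer-like value was above every value of the other classes, whose ranges overlapped one another. Within each rat, however, the endothelial-like value was above the hepatocyte-like value. Averaged over the 4 rats, the Kupffer-like level was 37.8-fold that of endothelial-like cells, with a log2 difference of endothelial-like minus Kupffer-like cells of -5.24 ± 0.53 (SD, n = 4). Immune-enriched Kupffer-like cells held 3953 CPM in DA and 9797 CPM in LEW, against 0.797 and 4.19 CPM in hepatocyte-like cells. The endothelial-like cells of these libraries held 10.1 and 82.6 CPM, the latter from 113 UMIs in 13 of 335 cells, 1 of which held 97.

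In nuclei too, Marco was highest in the Kupffer-like class of each rat. Kupffer-like nuclei held 625.4 and 607.3 CPM in the DA rats and 1095 and 441.6 CPM in the LEW rats. The endothelial-like nuclei of the 4 rats held 1, 5, 3 and 0 UMIs of Marco, and Lyz2 myeloid-like nuclei held none in any rat, in sums too small to show a low level. Hepatocyte-like nuclei lay between 5.85 and 16.8 CPM.

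Among the 4 classes compared, Cd163 was counted mostly in Kupffer-like cells. Kupffer-like TLH cells held 352.5 and 490.0 CPM in DA and 450.3 and 435.4 CPM in LEW. Endothelial-like cells held between 7.92 and 14.96 CPM and hepatocyte-like cells between 5.89 and 10.4 CPM, and these ranges overlapped. The Kupffer-like level was on average 41.7-fold the endothelial-like one, with a log2 difference of -5.38 ± 0.40 (SD, n = 4). Kupffer-like nuclei held 2061 and 954.3 CPM in DA and 456.4 and 690.6 CPM in LEW, against 3.26 to 31.2 CPM in endothelial-like nuclei. Immune-enriched Kupffer-like cells held 621.2 and 703.0 CPM in DA and LEW, against 2.90 and 5.85 CPM in endothelial-like cells. Mesenchymal-like cells, which are outside the 4 classes, held 275.5 and 458.4 CPM of Cd163 in these libraries and 47.1 to 97.1 CPM in the TLH. The first of these, from 29 cells of the DA rat, was 37.3 CPM of Cd163, from 3 UMIs, with the highest 6% of Scrublet doublet scores left out, and the second 447.9 CPM.

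Mrc1 was shared between Kupffer-like and endothelial-like cells. Endothelial-like TLH cells held 337.4 and 404.4 CPM in DA and 526.7 and 444.8 CPM in LEW, and Kupffer-like cells of the same rats held 285.5, 316.0, 401.6 and 367.8 CPM. The endothelial-like level was the higher one within each of the 4 rats, by 1.24-fold on average (log2 difference 0.32 ± 0.07, SD, n = 4), but the classes overlapped when all rats were pooled. Hepatocyte-like cells lay between 13.4 and 24.99 CPM and Lyz2 myeloid-like cells between 35.3 and 45.5 CPM. Every value of both sinusoidal classes lay above every value of these classes. Mesenchymal-like TLH cells, which are outside the classes compared, held 99.1 to 208.1 CPM, below every value of both sinusoidal classes.

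In nuclei and in the immune-enriched cells the Mrc1 level was also higher in the endothelial-like class of each library. Endothelial-like nuclei held 2036, 3025, 1800 and 1621 CPM of Mrc1, and Kupffer-like nuclei of the same rats held 970.2, 806.3, 309.0 and 378.5 CPM, with no overlap between the classes. The endothelial-like level was 3.74-fold the Kupffer-like one on average (log2 difference 1.90 ± 0.62, SD, n = 4). Immune-enriched endothelial-like cells held 2131 CPM in DA and 2305 CPM in LEW, against 824.4 and 882.7 CPM in Kupffer-like cells, a mean of 2.60-fold. The preparations were sequenced with different chemistry, 3′ version 2 for TLH and version 3 for the others, so the size of the ratio was not compared between them.

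Msr1 had the same kind of distribution at low counts. Kupffer-like TLH cells held 52.2 and 85.7 CPM in DA and 96.5 and 83.8 CPM in LEW, and endothelial-like cells held 63.9, 90.2, 82.4 and 52.1 CPM. Neither class was higher in all rats, and the mean log2 difference was -0.14 ± 0.42 (SD, n = 4). Hepatocyte-like cells held between 5.80 and 11.1 CPM, below every value of both sinusoidal classes. Mesenchymal-like TLH cells, which are outside the classes compared, held 37.2 to 69.1 CPM, a range that overlapped those of both sinusoidal classes. In nuclei the endothelial-like level of Msr1 was above the Kupffer-like one in each rat, with 346.1, 422.3, 160.1 and 189.2 CPM against 176.4, 76.5, 80.8 and 89.6 CPM, a mean of 2.59-fold. In immune-enriched cells the ratio was 3.80-fold, with 982.9 and 1033 CPM in endothelial-like and 248.7 and 282.2 CPM in Kupffer-like cells.

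The stabilins were counted mostly in endothelial-like cells, and with few UMIs in the TLH. Endothelial-like TLH cells held 22, 55, 42 and 22 UMIs of Stab2 in the 4 rats, which is 14.5 and 21.1 CPM in DA and 33.3 and 32.7 CPM in LEW, while Kupffer-like cells held 0, 4, 0 and 1 UMIs. Over the 4 rats together, 141 against 5 UMIs gave a ratio of 23.4 (95% interval 9.78 to 73.1). Stab1 reached 0, 6, 4 and 3 UMIs in endothelial-like TLH cells and 1 UMI in all Kupffer-like cells, a ratio of 10.8 (95% interval 1.62 to 458). These intervals are exact conditional intervals on sums over rats and cover counting error only.

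Nuclei and immune-enriched cells held more of both stabilins. Endothelial-like nuclei held 313.5, 491.5, 316.6 and 345.8 CPM of Stab2 and 101.8, 245.8, 99.6 and 234.9 CPM of Stab1, and Kupffer-like nuclei at most 16.6 and 19.9 CPM. The pooled ratio of endothelial-like to Kupffer-like nuclei was 41.8 for Stab2 (95% interval 21.0 to 97.5) and 22.6 for Stab1 (10.8 to 57.0). Immune-enriched endothelial-like cells held 188.5 and 166.6 CPM of Stab2 and 60.9 and 45.3 CPM of Stab1, with ratios of 81.1 (36.9 to 223) and 28.3 (11.7 to 88.9). Hepatocyte-like nuclei held 0.957 to 1.52 CPM of Stab2, and Lyz2 myeloid-like nuclei held 2, 0, 2 and 0 UMIs in sums too small for a level.

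Scarb1 was counted in every class, with hepatocyte-like cells above Kupffer-like cells in the TLH. In the TLH, hepatocyte-like cells held 26.5, 28.7, 23.7 and 22.1 CPM, Kupffer-like cells 21.7, 18.2, 12.9 and 14.3 CPM and endothelial-like cells 13.2, 21.1, 15.05 and 23.8 CPM. Every hepatocyte-like value was above every Kupffer-like one, while the endothelial-like values overlapped both. Lyz2 myeloid-like TLH cells held 11.9 to 45.5 CPM, with a mean of 31.3 CPM against 25.3 CPM in hepatocyte-like cells. The endothelial-like minus Kupffer-like log2 difference was 0.11 ± 0.61 (SD, n = 4). In nuclei all 4 classes overlapped, with 103.3 to 135.1 CPM in hepatocyte-like, 76.4 to 112.3 CPM in Kupffer-like and 62.0 to 154.7 CPM in endothelial-like nuclei. Lyz2 myeloid-like nuclei held 88.0 to 291.7 CPM, from small sums. Because hepatocytes make this receptor, free hepatocyte RNA and expression in sinusoidal cells cannot be told apart at these levels in the TLH. Immune-enriched Kupffer-like cells, in which hepatocyte markers were few, held 14.8 and 14.6 CPM and endothelial-like cells 11.6 and 19.7 CPM, both below the 28.3 and 30.4 CPM of hepatocyte-like cells.

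**Figure D1:**
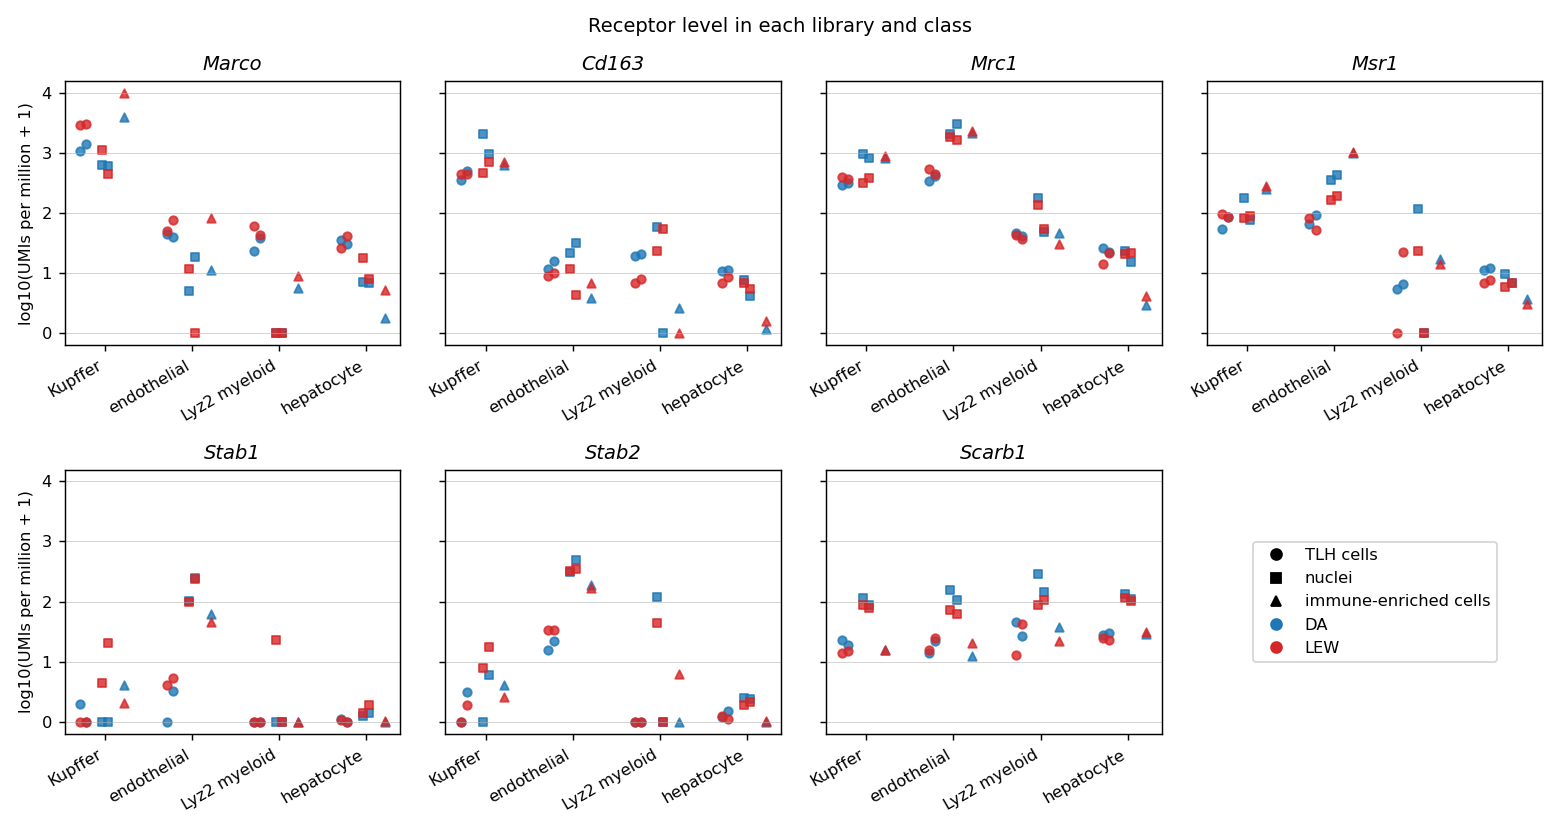
Level of each receptor, as log10 of CPM plus 1, in the 4 cell classes, with 1 point for each library (circles TLH cells, squares nuclei, triangles immune-enriched cells, blue DA, red LEW). Marco and Cd163 are highest in Kupffer-like cells, Stab2 in endothelial-like cells, Stab1 in endothelial-like cells of the nuclei and immune-enriched libraries, Mrc1 and Msr1 stand above hepatocyte-like cells in both sinusoidal classes, and the points of Scarb1 overlap between the 4 classes in nuclei.

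Read as a count over the receptors, 1 of them (Mrc1) was higher in endothelial-like than in Kupffer-like cells in all 4 TLH rats, and 2 of them (Mrc1 and Msr1) in all 4 nuclei rats, where both classes had over 3 UMIs in every rat. This condition was met by 5 receptors in the TLH and by 3 (Mrc1, Msr1 and Scarb1) in nuclei. Of all genes that met this condition, 27.7% in the TLH and 13.7% in nuclei did the same. The receptors were listed for this sharing, so nothing is read from these counts. The stabilins had too few Kupffer-like UMIs to enter them, and Marco and Cd163 too few endothelial-like UMIs in nuclei.

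Lyz2 myeloid-like cells, which carry monocyte and antigen-presentation genes, had low levels of the receptors other than Scarb1. In the TLH, Cd163 lay between 5.96 and 19.9 CPM, Msr1 between 0 and 21.2 CPM and Mrc1 between 35.3 and 45.5 CPM. In immune-enriched cells, where the background was lower, Mrc1 was 46.2 CPM in DA and 29.5 CPM in LEW and Msr1 15.9 and 13.4 CPM. Each was above the hepatocyte-like level of 1.99 and 3.21 CPM and of 2.79 and 2.05 CPM. Those hepatocyte-like cells were deeper, with medians of 27628 and 18791 against 4627 and 3540 UMIs. Lymphocyte-like cells, with medians of 3753 and 3848 UMIs, held 3.39 and 6.59 CPM of Mrc1 and 6.78 and 3.95 CPM of Msr1. The Msr1 intervals of Lyz2 myeloid-like cells, from 10 and 5 UMIs, overlapped those of lymphocyte-like cells (exact 95% Poisson). The Mrc1 intervals of these classes also overlapped in LEW, at 14.7 to 52.7 CPM against 2.14 to 15.4 CPM, and were apart in DA. Marco was counted 3 times in the Lyz2 myeloid-like cells of each of the 2 libraries. Scarb1 was 36.6 and 21.4 CPM, against 28.3 and 30.4 CPM in hepatocyte-like cells.

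Within Kupffer-like TLH cells, Marco was present at many UMIs in some cells and absent from most. This spread was among the reasons the gene was listed, so it is set out as a description. The share of cells with no Marco UMI was 64.9% and 63.1% in the DA rats and 54.5% and 52.6% in the LEW rats. A count spread evenly over the cells in proportion to their depth (a Poisson count) would have left 11.4% and 2.41% in DA and 0.0410% and 0.0377% in LEW without one. Meanwhile 15.8%, 19.7%, 31.8% and 29.5% of cells held 5 UMIs or more, and only 10.4%, 8.68%, 7.36% and 12.3% held exactly 1. Among cells with any Marco the median was 4 and 6 UMIs in DA and 13.5 and 12 UMIs in LEW, and single cells reached 34, 79, 101 and 84 UMIs. More cells held 5 UMIs or more than held exactly 1 in every rat.

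The 10% of Kupffer-like cells with the most Marco held 69.0%, 72.4%, 58.5% and 57.6% of all Marco UMIs in the 4 TLH rats. Cd163 was spread more evenly, with 36.7% to 39.9% of its UMIs in the top 10% of its own ranking. For Clec4f, the Kupffer C-type lectin, it was 20.4% to 24.95%. Cd163 and Mrc1 lay nearer to a Poisson count in Kupffer-like cells. Cd163 was absent from 53.6%, 35.1%, 31.8% and 38.2% of cells, against 48.2%, 23.9%, 21.7% and 26.1% for an even spread. Mrc1 was absent from 57.2%, 41.9%, 31.8% and 39.4% of cells, against 55.2%, 39.0%, 25.3% and 31.9%. Msr1, with 53 to 160 UMIs over all Kupffer-like cells of a rat, was too sparse for such a reading. The variance of Marco was 11.9, 24.5, 37.0 and 33.3 times its mean in the 4 rats, against 1.42 to 2.76 times for Cd163. At equal unevenness this ratio rises with the mean count, so it does not compare the spread between genes or rats. Over the same cells Marco had 1100, 2566, 3138 and 3138 UMIs and Cd163 358, 915, 490 and 457 UMIs.

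**Figure D2:**
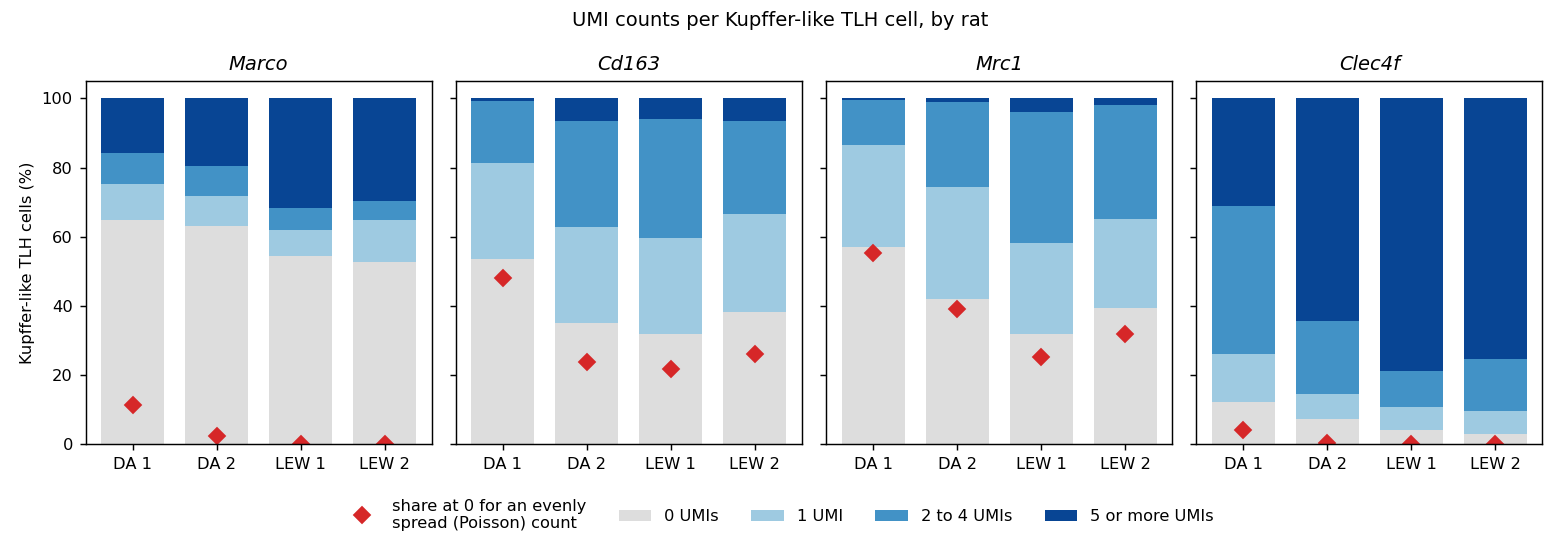
Share of Kupffer-like TLH cells with 0, 1, 2 to 4 and 5 or more UMIs of Marco, Cd163, Mrc1 and Clec4f in each rat (stacked bars, percent of cells), with the share at 0 of an evenly spread count as a red diamond. For Marco the grey bars end between 52.6% and 64.9% while the diamonds lie at or below 11.4%, and for Mrc1 diamonds and grey bars lie within 7.49 percentage points.

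To compare rats at the same depth, cells were thinned, which can only lower the share with a UMI. Thinned to 1000 UMIs a cell, Marco was found in 27.7% and 27.6% of Kupffer-like cells in DA and in 36.6% and 36.8% in LEW, against 35.1%, 36.9%, 45.5% and 47.4% at full depth. Thinned hepatocyte-like cells held it in 3.002%, 2.90%, 2.28% and 3.34%, and unthinned ones in 5.40% to 7.56%, at median depths of 1822 to 2628 UMIs against 2017 to 3576 UMIs in Kupffer-like cells. The mean thinned share of Kupffer-like cells without Marco was 67.8% ± 5.24 (SD, n = 4). In nuclei it was 78.9% ± 3.65 (SD, n = 4) and unthinned 74.6% ± 8.03, and in the 2 immune-enriched libraries 80.9% ± 5.31 and unthinned 75.3%. An evenly spread count would leave an unthinned 29.6% on average in nuclei, and at most 39.1%. The same average was 3.48% in the TLH and 0.158% in immune-enriched cells.

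The immune-enriched cells, made with another chemistry than the TLH and in part deeper, held the highest single counts. Marco was absent from 79.7% of Kupffer-like cells in DA and 70.9% in LEW, while positive cells held a median of 17 and 122.5 UMIs and single cells reached 586 and 959 UMIs. Here a shallow and a deep cluster were both Kupffer-like. The 167 cells of the deep cluster, with a median of 12590 UMIs, held 4587 CPM in DA and 12139 CPM in LEW, and the 251 cells of the shallow one, with a median of 1666 UMIs, held 353.2 and 1801 CPM. The leading genes of the shallow cluster include transcripts of the mitochondrial genome. With a stricter mitochondrial limit 71 and 172 cells of the class remained, with medians of 10898 and 10215.5 UMIs instead of 2875 and 2771, and Marco was absent from 73.2% and 57.0% of them. The part of RNA quality in these shares was not tested. Thinned shares with Marco were 39.6% and 7.37% in these clusters. Clec4f and Cd163 were also missing from many cells of these libraries, Clec4f from 39.9% and 49.5% and Cd163 from 51.7% and 56.7%. Each Kupffer-like class of the other preparations also held a pair of clusters, with thinned shares of 33.0% and 26.2% in the TLH and of 27.2% and 10.2% in nuclei.

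Kupffer-like TLH cells with and without a Marco UMI both carried the other Kupffer receptors, at lower levels in cells without it. Cd163 was 440.1, 599.9, 504.9 and 481.2 CPM in cells with Marco and 300.2, 420.8, 397.2 and 391.9 CPM in cells without it. Msr1 was 63.3, 123.3, 104.3 and 93.9 CPM against 45.6, 62.0, 88.9 and 74.3 CPM, and Mrc1 was 321.5, 322.8, 447.2 and 447.9 CPM against 264.0, 311.7, 357.3 and 291.6 CPM. The Kupffer marker Cd5l was also lower without Marco in each rat, at 2103, 2350, 3317 and 3268 CPM against 1231, 1399, 2496 and 2105 CPM. For the Kupffer marker C1qa the levels were closer, at 3858, 4029, 6618 and 6652 CPM against 3291, 4011, 6011 and 6253 CPM. Clec4f and Vsig4 were lower without Marco in each rat as well. The larger Kupffer-like cluster held 81.1%, 64.3%, 82.4% and 72.1% of cells with Marco and 74.0%, 61.9%, 57.1% and 73.7% of cells without it. Cells with Marco were deeper, with medians of 2184, 3014, 3842 and 3193.5 UMIs against 1954.5, 2857.5, 3332 and 3043 UMIs, and had a smaller hepatocyte-marker share, with 9.74%, 10.96%, 7.18% and 8.95% against 11.3%, 11.8%, 8.998% and 9.45%. The part of depth, cluster and free RNA in these differences was not tested.

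For the strain comparison the UMIs of a class were summed per rat, with 2 rats a strain, and folds are log2 of LEW over DA with the standard error of the fit. In Kupffer-like TLH cells Marco was 1.22 ± 0.17 higher in LEW on that scale. It was the 1 receptor past the threshold of 0.05 on the adjusted p among the 5 with enough counts for the fit, where 8.39% of all genes fitted were past it and 3.76% in the direction of LEW. The strains did not overlap in CPM for 3 of the 5, against 51.5% of all genes. Since the genes were listed with these folds in view, nothing is read from those counts. Over genes at least 2 times the hepatocyte-like level only, the Marco fold was 0.91, and those of Mrc1, Msr1 and Cd163 were 0.00, 0.01 and -0.28. In the fit over all genes Mrc1 differed by 0.31 ± 0.17, Msr1 by 0.31 ± 0.22, Cd163 by 0.03 ± 0.18 and Scarb1 by -0.57 ± 0.34. By cluster, Marco stood at 1189 and 1408 CPM in DA and 3404 and 2813 CPM in LEW in the larger Kupffer-like cluster, and at 662.6 and 1295 CPM in DA and 1122 and 3647 CPM in LEW in the smaller one, where the strains overlapped. Over 14 alternative analyses the Marco fold ranged from 0.91 to 1.40. The mitochondrial limit of TLH cells was 30% and 20% in the DA rats and 40% in both LEW rats. The stricter limit among the alternatives was scaled from each library's own, so no setting used a common limit. The part of this limit in the TLH folds was not tested.

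The summed Kupffer-marker share was higher in the Kupffer-like cells of LEW. Kupffer markers other than the receptors made up 2.05% and 2.31% of UMIs in DA and 4.03% and 4.08% in LEW, and hepatocyte markers 10.7% and 11.5% in DA and 8.10% and 9.21% in LEW. Per 100 Kupffer-marker UMIs, Marco stood at 5.28 and 5.94 in DA and 7.16 and 7.32 in LEW, still apart but by a smaller step. The part of these shares in the Marco fold was not tested. 

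Immune-enriched Kupffer-like cells, with 1 rat a strain and so no test, had exact 95% Poisson intervals for Marco of 3827 to 4082 CPM in DA and 9655 to 9941 CPM in LEW. The intervals cover counting error only. Per 100 Kupffer-marker UMIs the levels were 7.87 and 14.8. For Cd163, Mrc1 and Msr1 the 2 libraries were closer, at 621.2 and 703.0, 824.4 and 882.7, and 248.7 and 282.2 CPM.

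In Kupffer-like nuclei 0 of the 5 receptors fitted passed the threshold in the quasi-likelihood test of edgeR, where 1.48% of all genes did and 0.671% in the direction of LEW. At an unadjusted p under 0.05 there were 2 of the 5, against 712 of all 4470 genes fitted. DESeq2 called 1 of the 3 receptors to which it gave an adjusted p, Mrc1, against 58 of 1250 genes. With no filter on low counts edgeR called 2 of 7 receptors, against 257 of 14073 genes. Over genes at least 2 times the hepatocyte-like level it called 1 of 4, against 42 of 998 genes. Nothing is read from these counts. Over 13 alternatives, DESeq2 among them, the fold ranged from -1.44 to -0.74 for Mrc1 and from -1.79 to -0.60 for Cd163. Marco differed by 0.40 ± 0.39. Without the LEW rat with the highest value, 1095 CPM, the fold was -0.34. Per 100 Kupffer-marker UMIs, Marco stood at 5.79 and 5.76 in DA and 20.1 and 7.36 in LEW, with both LEW rats above both DA rats. With the larger of the pair of Kupffer-like clusters alone it was 1.19 ± 0.41, from 1206 and 1279 CPM in DA and 4082 and 1356 CPM in LEW. Mrc1 differed by -1.28 ± 0.31 and Cd163 by -1.31 ± 0.40, with DA above LEW in every rat of either strain. Within the larger cluster alone these folds were -0.75 and -0.81. The Kupffer-marker share of these nuclei was 1.08% and 1.05% in DA and 0.546% and 0.60% in LEW, the opposite order to that in the TLH, and its part in these folds was not tested. The strains did not overlap for 2 of the 5 receptors, against 47.4% of all genes.

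Among endothelial-like cells 0 of the 6 receptors fitted in the TLH and 0 of the 5 fitted in nuclei passed the threshold in the quasi-likelihood test of edgeR, where 3.38% and 0.691% of all genes did. At an unadjusted p under 0.05 there were 1 and 2, against 1350 of 7373 and 566 of 5209 genes. DESeq2 called 0 in both, against 115 of 8775 and 38 of 2102 genes with an adjusted p. With the replicate block Msr1 was called in nuclei, where 197 of 5209 genes were. Over 13 alternatives its fold there ranged from -1.23 to -0.86. The strains did not overlap for 4 of the 6 in the TLH, against 48.4% of all genes, and for 3 of the 5 in nuclei, against 40.2%, and nothing is read from these counts. Stab2 differed by 0.78 ± 0.29 in the TLH and by -0.24 ± 0.30 in nuclei. Mrc1 differed by 0.32 ± 0.16 and -0.53 ± 0.33, Msr1 by -0.25 ± 0.23 and -1.10 ± 0.30, and Scarb1 by -0.02 ± 0.35 and -0.92 ± 0.37. Msr1 in endothelial-like nuclei was lower in both LEW rats than in both DA rats. Stab1, fitted in nuclei only, differed by -0.01 ± 0.45, with 1 low and 1 high rat in each strain. Whether the folds differ between the TLH and nuclei was not tested.

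Hepatocyte-like cells gave the background of the same comparison. Of the 5 receptors fitted there, 0 passed the threshold in the TLH and 0 in nuclei, where 4.09% and 1.49% of all genes did in the edgeR test, and 0.626% in nuclei in the direction of LEW. At an unadjusted p under 0.05 there were 2 and 1, against 2099 of 9893 and 1025 of 10381 genes. DESeq2 called 0 in both, against 367 of 10935 and 198 of 11384 genes with an adjusted p. With no filter on low counts Msr1 alone was called in the TLH, where 1105 of 15853 genes were. The strains did not overlap for 4 of the 5 in the TLH, against 53.2% of all genes, and for 1 of the 5 in nuclei, against 35.8%. In the TLH, Marco differed by 0.05 ± 0.24, Scarb1 by -0.25 ± 0.15, Mrc1 by -0.44 ± 0.22, Cd163 by -0.57 ± 0.22 and Msr1 by -0.74 ± 0.21. The Marco level of hepatocyte-like cells overlapped between the strains. In hepatocyte-like nuclei Marco differed by 1.07 ± 0.47, and its highest value, 16.8 CPM, was in the same LEW library that was highest among Kupffer-like nuclei. Over 11 alternatives this fold ranged from 0.13 to 1.62. Lyz2 myeloid-like sums held too few receptor UMIs to pass the default filter of the edgeR fit. With no filter 5 receptors were fitted in the TLH and 6 in nuclei, and 0 were called, against 125 of 11235 and 1 of 9732 genes. DESeq2 gave an adjusted p to 0 receptors in the TLH and 6 in nuclei and called 0, against 33 of 562 and 0 of 9732 genes.

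**Figure D3:**
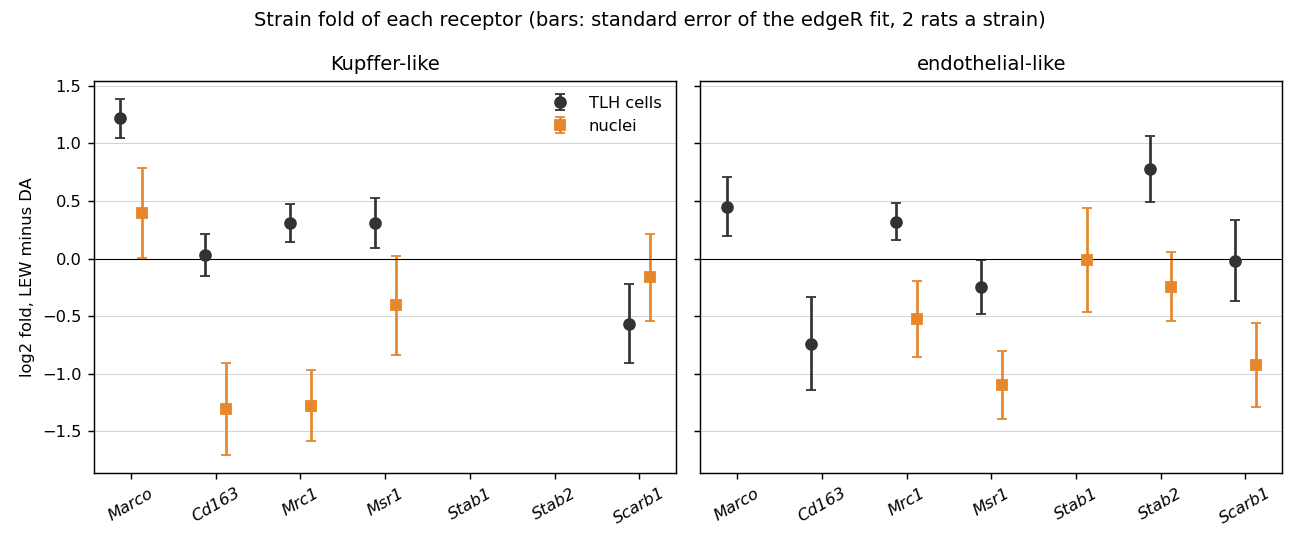
log2 fold of LEW minus DA for each receptor in Kupffer-like (left) and endothelial-like (right) TLH cells (circles) and nuclei (squares), with the standard error of the edgeR fit and 2 rats a strain; receptors without a point had too few counts for a fit. Marco in Kupffer-like TLH cells stands at 1.22, while Mrc1 and Cd163 in Kupffer-like nuclei stand at -1.28 and -1.31.

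Other uptake receptors were followed on a list of 43 scavenger, phagocytic and endocytic genes, of which 41 have a row. The list was chosen with results of these data known. In Kupffer-like TLH cells 25 of them were fitted and 10 changed between strains, 7 higher in LEW and 3 higher in DA, by edgeR's quasi-likelihood test with Benjamini-Hochberg adjustment over all genes, where 8.39% of all genes were called. DESeq2 called 5 of the 20 list genes to which it gave an adjusted p, against 195 of 4396 of all genes. They were Cd5l, Cd68, Cxcl16, Lyve1 and Vsig4, while Timd2, Fcgr3a, Fcgr1a and Clec4f were not called and Clec10a had no adjusted p. The median fold of the 25 was 0.05, against -0.00 over all genes. Lyve1, the hyaluronan receptor of lymphatic and sinusoidal endothelium, fell in LEW by 1.82 ± 0.26 on the log2 scale, from 86.6 and 141 CPM in DA to 28.5 and 39.1 CPM in LEW (edgeR adjusted p = 0.000981). Clec10a, a galactose-type lectin of macrophages, fell by 1.48 ± 0.42 (edgeR adjusted p = 0.0353), and Timd2, a receptor of the TIM family, fell by 1.06 ± 0.21 (edgeR adjusted p = 0.00314).

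The genes higher in LEW included Cxcl16, a chemokine that is also a scavenger receptor for oxidised lipoprotein, and Cd68, a lysosomal scavenger protein of macrophages. Cxcl16 rose by 1.1 ± 0.21 (edgeR adjusted p = 0.00245), from 41.4 and 49.3 CPM in DA to 89.1 and 113 CPM in LEW. Cd68 rose by 0.98 ± 0.18 (edgeR adjusted p = 0.00262). Vsig4, Cd5l, Fcgr3a, Fcgr1a and Clec4f were also higher in LEW. Cd68, Vsig4, Cd5l and Clec4f are among the Kupffer markers that named the class, and so form part of the marker share given above.

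In endothelial-like TLH cells, where 3.38% of all genes were called, 2 of 23 rose in LEW by edgeR. DESeq2 called 0 of 25, against 115 of 8775 of all genes. Cxcl16 rose by 1.58 ± 0.30 (edgeR adjusted p = 0.00869) and Fcgr2b, the inhibitory Fc receptor that takes up immune complexes in sinusoidal endothelium, by 0.65 ± 0.15 (edgeR adjusted p = 0.0263). In Lyz2 myeloid-like cells 2 of 18 rose, Cxcl16 by 1.94 ± 0.39 (edgeR adjusted p = 0.0108) and Cd68 by 1.53 ± 0.30 (edgeR adjusted p = 0.00947), where 3.56% of all genes were called and DESeq2 gave the list no adjusted p. In hepatocyte-like cells 1 of 25 changed, against 4.09% of all genes, and it was Lyve1, which fell in LEW by 1.33 ± 0.15 (edgeR adjusted p = 0.00299). DESeq2 called Lyve1 too, 1 of 27, against 367 of 10935 of all genes. Lyve1 thus moved the same way in the background as in Kupffer-like cells, and the part of free endothelial RNA in its Kupffer-like fold was not tested. In nuclei 22, 17, 2 and 23 list genes were fitted in the Kupffer-like, endothelial-like, Lyz2 myeloid-like and hepatocyte-like classes. In the edgeR test 0 passed, where 1.48%, 0.691%, 0% and 1.49% of all genes did. At an unadjusted p under 0.05 there were 7, 3, 0 and 2, against 712 of 4470, 566 of 5209, 15 of 278 and 1025 of 10381 genes. DESeq2 called Axl, 1 of 11, in the Kupffer-like class, against 58 of 1250 genes. In the endothelial-like class it called Lyve1, 1 of 9, against 38 of 2102 genes. Lyve1 had 699 and 756 UMIs in the 116 and 154 endothelial-like nuclei of the DA rats. In the 119 and 142 of the LEW rats it had 311 and 305 UMIs. Neither test called Lyve1 in endothelial-like TLH cells.

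On the Visium sections the receptors were read along a zone score made from 12 periportal and 12 pericentral hepatocyte genes. The sections held 2437 and 2404 spots with medians of 13773 and 14240.5 UMIs. A spot covers several cells, so fewer cells of a type and less RNA per cell cannot be told apart. Marco was counted 3270 and 3933 times, in 55.4% and 56.0% of spots. Spots were ranked by the score and split into 3 equal groups, portal, middle and central. In portal spots Marco stood at 1.69 and 2.08 per 10000 UMIs in sections 1 and 2, and in central spots at 0.497 and 0.439. The fold was 3.40 (95% interval 3.09 to 3.74) and 4.73 (4.29 to 5.23). These exact intervals cover counting error only, and the sections were not tested against each other.

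Cd163 and Msr1 were portal by smaller folds. Cd163 was 1.62-fold (95% interval 1.33 to 2.00) and 1.91-fold (1.60 to 2.29) higher in portal than in central spots, and Msr1 1.78-fold (1.42 to 2.24) and 1.60-fold (1.27 to 2.02). The sum of the Kupffer markers, which weights each marker by its UMIs, gave 1.56-fold (1.52 to 1.59) and 1.61-fold (1.57 to 1.64). The interval of Marco lay above that of the marker sum in both sections, and those of Cd163 and Msr1 overlapped it in both. Of the Kupffer markers only Cd5l, Vsig4, Clec4f and C1qa were taken singly, and the others entered only through the sum. Cd5l gave 2.19-fold and 2.26-fold, Vsig4 2.16-fold and 2.04-fold, Clec4f 1.68-fold and 1.78-fold, and C1qa 1.75-fold and 1.76-fold. Each lay above the marker sum, so the other markers together lay below it. The intervals of Marco lay above those of Cd5l, Vsig4, Clec4f and C1qa in both sections.

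Mrc1 and Scarb1 had zone folds between 0.967 and 1.25. Mrc1 gave 1.04-fold (95% interval 0.933 to 1.16) and 0.967-fold (0.871 to 1.07), with both intervals across 1, and the endothelial marker sum gave 0.946-fold and 0.951-fold. Scarb1 gave 1.25-fold in both sections (1.14 to 1.37 and 1.15 to 1.37). Stab2, with 13 and 15 UMIs over whole sections, gave 0.639-fold (0.133 to 2.70) and 1.28-fold (0.304 to 6.18), intervals too wide to place it, and Stab1, with 1 and 6 UMIs, was not placed. In all, 4 of the 6 receptors with at least 10 UMIs in each section were higher in portal spots in both sections with the interval off 1, where 4.97% of 10700 genes were, and 0 in central spots, where 4.93% were. The zone was part of how the genes were listed, so nothing is read from that count. Lyve1, for contrast, was central, at 0.688-fold and 0.628-fold.

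**Figure D4:**
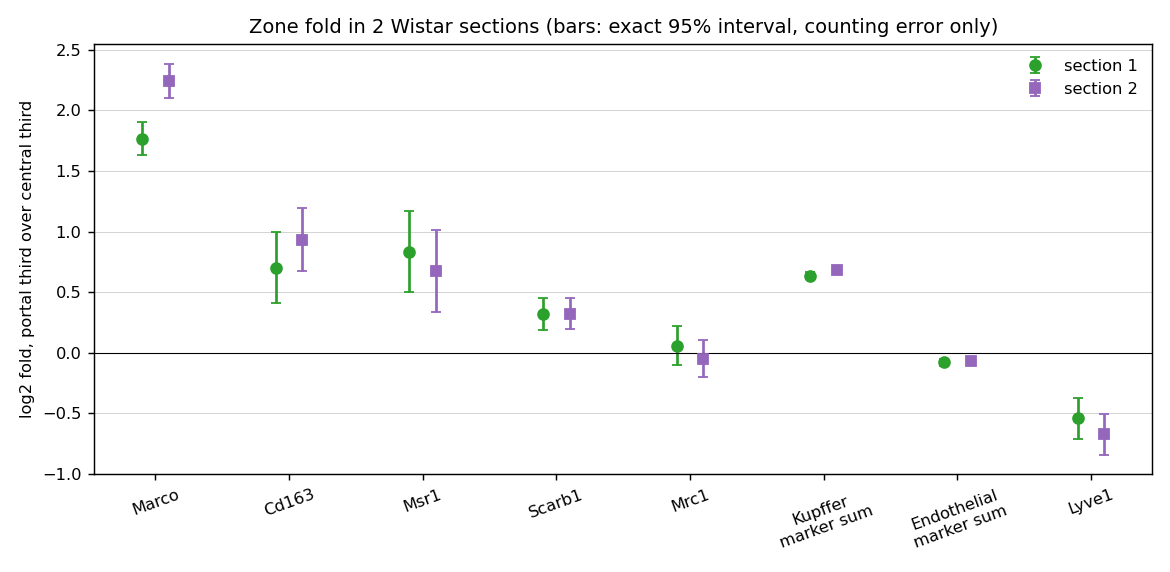
log2 fold of portal over central spots for 5 receptors, for the sums of Kupffer and endothelial markers and for Lyve1, in the 2 Wistar sections (circles section 1, squares section 2), with exact 95% intervals for counting error. Marco stands above the other genes and sums plotted in both sections, at folds of 3.40 and 4.73, Mrc1 lies at 0 on the log2 scale within its interval, and Lyve1 lies below 0.

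The genes most like each receptor over 24 TLH sums, 6 classes in each of 4 rats, were taken from 7968 genes by Pearson correlation of log2 CPM. The sums of a rat share a library and its free RNA, so the correlations are a description. For Marco they were AC103129.1 (r = 0.973), Hk3 (0.967) and Ntsr1 (0.961). For Cd163 they were Cfd (0.975), Zfat (0.965) and Clec4f (0.963), and for Mrc1 Cdh5 (0.969), Lrg1 (0.965) and Maf (0.937). Msr1 was nearest to Rgl1 (0.966), followed by Mrc1 itself (0.926) and Fcgrt (0.909), and Stab2 to Sox17 (0.947), Ptprr (0.936) and Col4a4 (0.930). Scarb1 had no close match, its highest being Cadm1 (0.737), Lrrc57 (0.720) and Pdf (0.700). Marco and Cd163, both highest in Kupffer-like cells, had r = 0.916, and Stab1 had too few UMIs to be compared.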

How the data were processed

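The authors aligned reads to a rat reference with Cell Ranger 3.1.0, or Space Ranger 1.1.0 for the sections, per the labels, and the deposited values are UMI counts of each gene in each barcode or spot, not normalized. For TLH and immune-enriched cells, row names were those of the nuclei gene list, which has as many rows. The genes, the lists and the tests were chosen with earlier results of these data known.

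Cells were kept from 1500 UMIs (TLH DA 1), 2000 UMIs (the other TLH rats) or 1000 UMIs (nuclei and immune-enriched), with at most 30%, 20%, 40% and 40% mitochondrial UMIs in TLH DA 1, DA 2, LEW 1 and LEW 2, 50% in immune-enriched cells and 10% in nuclei. The range of depth over the libraries of each preparation is given in the report, and intervals cover counting error only. Counts were normalized with sctransform 0.4.2, and the receptors were then left out. The rest was reduced with irlba 2.3.5.1, integrated on 15 components by a Harmony procedure written for this purpose, and clustered with Seurat 5.3.0. Clusters were named from fixed marker lists where at least 3 markers were among the 30 leading genes. Remaining clusters were called hepatocyte-like where at least 3 hepatocyte markers were among the 100 genes leading over named cells. Scrublet called 7 doublets in the TLH, too few to be used, so the 6% of cells with the highest score were left out as an alternative. Nuclei libraries shared 1 to 6 barcodes a pair. Barcodes of the other preparations were not compared.

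UMI sums per rat and class with at least 10 cells in each rat were compared in R 4.3.3 by edgeR 4.0.16, quasi-likelihood test (TMM, robust, default filter on low counts, Benjamini-Hochberg at 0.05), which was tested on simulated data. DESeq2 1.42.0, RLE size factors, no filter, a replicate block, rats left out, a stricter mitochondrial limit, genes at least 2 times the hepatocyte-like level, clustering with the receptors and, added after the data were seen, the largest cluster of a class alone and a crossed block were the alternatives. Genes named are the receptors, the 3 most like each (at least 10 CPM in at least 4 sums, 10 added before log2) and at most 5 list genes a class by fold among those past the threshold. Vsig4, Cd5l, Fcgr3a, Fcgr1a and Clec4f were named in addition after their values were seen. The labels call the samples of a strain separate rats. The study's mixed model was not run.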

Additional observations from a re-analysis of the deposited data

Results flagged for a closer look

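The strain fold of Mrc1 had opposite signs in cells and nuclei, with the strains apart in CPM in both. In Kupffer-like cells the log2 fold of LEW minus DA was 0.31 in the TLH and -1.28 in nuclei, and in endothelial-like cells 0.32 in the TLH and -0.53 in nuclei. Over genes at least 2 times the hepatocyte-like level, the Kupffer-like folds of Mrc1 were 0.00 in the TLH and -0.74 in nuclei. All values come from 2 rats a strain, and the difference between cells and nuclei was not tested.

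Mesenchymal-like immune-enriched cells, a class the comparisons above leave out, held receptors above the hepatocyte-like level of their library. The 29 such cells of the DA rat held 88.6 CPM of Marco, 369.0 CPM of Msr1, 275.5 CPM of Cd163 and 861.0 CPM of Mrc1. The 63 of the LEW rat held 1766 CPM of Marco, 828.9 CPM of Msr1, 458.4 CPM of Cd163 and 1613 CPM of Mrc1. Kupffer markers made up 1.61% and 3.87% of their UMIs, against 5.02% and 6.62% in Kupffer-like cells of the same libraries, and their median depths were 5629 and 19771 UMIs. With the highest 6% of Scrublet scores left out, 19 cells of the DA rat remained, with a Kupffer-marker share of 0.158%, 0 UMIs of Marco, 3 of Cd163 and 161.6 CPM each of Msr1 and Mrc1. In the LEW rat 55 cells remained, with a share of 3.95% and 1377 CPM of Marco, 775.6 CPM of Msr1, 447.9 CPM of Cd163 and 1602 CPM of Mrc1. The part of Kupffer RNA in these levels was not tested.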

How the results depend on the processing

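The count of genes past the threshold moved by over 1.5 times under some settings, and the cause was not tested unless the setting itself removes genes or cells. For Kupffer-like TLH cells (568) it was 195 with DESeq2 and 95 over genes at least 2 times the hepatocyte-like level. For endothelial-like TLH cells (249) these gave 115 and 54, and no filter on low counts 498. For Lyz2 myeloid-like TLH cells (80) they gave 33, 23 and 125. No filter gave 1105 for hepatocyte-like TLH cells (405), and the largest cluster alone 220. For Kupffer-like nuclei (66), no filter gave 257 and the stricter gene set 42. For endothelial-like nuclei (36), no filter gave 152, leaving out high Scrublet scores 16, clustering with the receptors 22 and the largest cluster alone 105. For Lyz2 myeloid-like nuclei (0, with 15 genes at an unadjusted p under 0.05 and 0 with DESeq2), no filter gave 1 and the stricter gene set 5. For hepatocyte-like nuclei (155), no filter gave 467 and the largest cluster alone 53. With each rat left out the counts ranged over 211 to 487, 14 to 542, 55 to 117 and 39 to 237 for Kupffer-like, endothelial-like, Lyz2 myeloid-like and hepatocyte-like TLH cells and over 111 to 214, 52 to 175, 0 to 25 and 71 to 249 for those nuclei.

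With the replicate number as a block, the counts were 365, 263, 56 and 227 in the TLH and 86, 197, 0 and 509 in nuclei, in the same order of classes. No label says what the numbers mark, and with 2 rats a strain they were not taken to pair the samples. Same-numbered samples deviated together by a correlation of -0.14 to 0.08 in 7 of the 8 classes and 0.54 in Lyz2 myeloid-like nuclei. A crossed pairing, added after the data were seen where the correlation was under -0.1, gave 655, 296 and 978 for Kupffer-like, endothelial-like and hepatocyte-like TLH cells.

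The mean share of Kupffer-like cells without Marco was 58.8% unthinned in the TLH, 74.6% in nuclei and 75.3% in immune-enriched cells. Thinned, the share in the largest cluster alone was 72.0% in nuclei and 92.9% in immune-enriched cells. In immune-enriched cells the largest cluster was the shallow cluster described above, led in part by transcripts of the mitochondrial genome. With each rat left out the thinned share ranged over 66.3% to 69.4% in the TLH and 78.0% to 80.7% in nuclei, and the count of receptors higher in endothelial-like cells over 1 to 2 in the TLH and stayed at 2 in nuclei. The zone fold of Marco ranged over 2.8 to 4.2 and 4.14 to 6.32 in the sections. The stabilins had few UMIs in the TLH and on the sections, and 2 rats a strain limit every fold. Lyz2 myeloid-like nuclei were not fitted under the stricter mitochondrial limit, which left 7 nuclei in a rat.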
